A study of Mus musculus with 8 samples.

Results

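Hox genes encode homeodomain transcription factors and lie in 4 clusters in the mouse genome: HoxA on chromosome 6, HoxB on chromosome 11, HoxC on chromosome 15 and HoxD on chromosome 2. All array probes whose symbol names a member of one of these clusters were taken, which gave 46 probes for 36 of the 39 Hox genes in the RefSeq table, out of 41174 probes and 18217 named genes on the array. Every HoxA, HoxB and HoxD gene of that table had a probe. No probe was matched to Hoxc4, Hoxc6 or Hoxc11. 41 probes for 33 genes were bright enough to be tested. Hoxb1, Hoxd1 and Hoxd3 were not.

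RNA was compared between mouse embryonic fibroblasts (MEFs) that were wild type (WT TR MEFs) and MEFs without Keap1 (Keap1-/- TR MEFs, called Keap1 null here). Each was grown in a culture dish, labelled 2D, or as a tumour after injection into nude (nu/nu) mice, labelled 3D and called an allograft here. The 4 groups held 2 arrays each, and the labels do not spell out TR, which all 4 groups share. Tumours grew from 10000000 WT or 3000000 Keap1 null cells and were taken at 100 to 150 mm3. Animal age and sex, how each line was derived and whether the 2 arrays of a group came from separate cultures or animals are not given in the sources used here. The p-values therefore measure the spread between these arrays, which may be technical. The labels name 1 kind of cell per genotype, so the loss of Keap1 and any other difference between the lines cannot be told apart.

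The order of the genes along a Hox cluster matches the order of their use along the body axis. Low paralog numbers act in the hindbrain and neck, middle numbers in the trunk, and high numbers in the lumbar, tail and distal limb regions. Fibroblasts keep part of this positional pattern in culture, and adult fibroblasts from different body sites can be told apart by it. The proteins bind DNA with partners of the PBX and MEIS families. Polycomb complexes hold the clusters silent, and Trithorax proteins keep expressed genes active. Keap1 marks the transcription factor NRF2 (Nfe2l2) for degradation.

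Levels are given as log2 of the processed spot intensity minus the 75th percentile of its array, so 0 is the brightness of a probe at that percentile and 1 unit is a doubling. They are compared between samples for 1 probe, never between probes. A gene is called here when its limma adjusted p, corrected over all 22919 targets, is below 0.05. The share of probes well above background was 60.6% to 74.7% over the 8 arrays. In the dish Keap1 read 3.32 and 2.99 for WT against 2.37 and 2.22 for Keap1 null, and in the allograft 2.85 and 2.46 against 1.00 and 0.92. It was lower in the Keap1 null line in both settings (limma adjusted p = 0.0197 and 0.000722), and whether its probe lies in the deleted part is not given. Nfe2l2 differed by 0.07 between the dishes (adjusted p = 0.743) and was 0.60 higher in Keap1 null allografts (adjusted p = 0.00529). Of 12 fibroblast markers, 10 were well above background on both WT dish arrays, 11 on both Keap1 null dish arrays and all 12 in the allografts. Those missing from WT dishes were Lum and Fap. In Keap1 null dishes 8 of the 12 were called higher and 2 lower (median 1.93), and their summed level, in multiples of the 75th percentile, was 457 to 466 there and 366 to 404 in WT dishes. The part of this in the dish Hox differences was not tested.

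The start regions of 4 genes are shown because these genes differed between the lines in both settings: Hoxd13, Hoxd8 and Hoxa13 were higher in the Keap1 null line and Hoxa2 lower. Each is the 250 bases before the transcription start in RefSeq (GRCm38.p6), written 5′ to 3′ on the gene's own strand, with matches to the searched motifs in capitals. Hoxd13 is at chr2:74667975-74668224 on the plus strand, Hoxd8 at chr2:74704365-74704614 on the plus strand, Hoxa13 at chr6:52260881-52261130 on the minus strand and Hoxa2 at chr6:52164832-52165081 on the minus strand.
Hoxd13: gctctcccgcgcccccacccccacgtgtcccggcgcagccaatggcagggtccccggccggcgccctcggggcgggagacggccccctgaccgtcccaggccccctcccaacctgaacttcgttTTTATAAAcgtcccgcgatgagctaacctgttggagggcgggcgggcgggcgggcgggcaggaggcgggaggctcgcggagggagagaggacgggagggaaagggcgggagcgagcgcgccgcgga
Hoxd8: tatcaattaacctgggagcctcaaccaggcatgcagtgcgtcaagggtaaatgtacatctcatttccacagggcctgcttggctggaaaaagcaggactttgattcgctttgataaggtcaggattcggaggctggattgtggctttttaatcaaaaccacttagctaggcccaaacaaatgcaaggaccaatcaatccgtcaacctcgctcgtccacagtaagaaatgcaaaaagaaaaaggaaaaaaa
Hoxa13: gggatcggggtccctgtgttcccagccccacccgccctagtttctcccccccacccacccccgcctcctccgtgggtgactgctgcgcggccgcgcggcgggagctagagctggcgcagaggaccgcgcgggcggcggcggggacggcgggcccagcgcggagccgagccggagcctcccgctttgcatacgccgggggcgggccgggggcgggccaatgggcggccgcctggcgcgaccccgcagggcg
Hoxa2: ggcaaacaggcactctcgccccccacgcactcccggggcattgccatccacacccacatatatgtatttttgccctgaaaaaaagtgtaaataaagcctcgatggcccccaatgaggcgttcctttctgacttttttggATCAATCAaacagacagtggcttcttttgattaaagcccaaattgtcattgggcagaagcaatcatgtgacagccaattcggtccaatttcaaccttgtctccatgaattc
The 24 windows at hand for 22 Hox genes were searched on both strands for 3 motifs and set against 32851 windows of the same length over all genes. TATAAA, the letters of the TATA box, was in 4 of the 24 (Hoxa10, Hoxb8, Hoxd13 and Hoxd4), or 16.7%, and in 12.4% of all windows. In Hoxd13 it matched on both strands, in overlapping letters. In Hoxa10, Hoxb8 and Hoxd4 it matched only on the strand opposite to the gene. TGATTNAT, a joint HOX and PBX site, was in 2 (Hoxa2 and Hoxd11), or 8.33%, and in 2.82% of all. TGACNNNGC, the core of the element that NRF2 binds, was in 1 (Hoxa6), or 4.17%, and in 10.2% of all. The median CpG content, as observed over expected, was 0.72 in the Hox windows and 0.37 in all windows. Within the 4 printed windows it was 0.90 for Hoxd13, 0.88 for Hoxa13, 0.49 for Hoxd8 and 0.47 for Hoxa2. These are matches of letters and no measure of binding.

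The groups differed first in which Hox genes were well above background, a flag of the scanner software that a spot can miss while still significantly brighter than its surround. Of the 36 genes, 26 (WT) and 30 (Keap1 null) were well above background on both arrays in the dish, and 29 of each line in the allograft. HoxD varied most in this count: of its 9 genes only Hoxd4 had the flag on both WT dish arrays and 6 had it in those of the Keap1 null line, and allografts showed 4 for WT and 7 for Keap1 null. By the looser flag, positive and significantly above the local background on both arrays, these HoxD counts were 5, 8, 6 and 8. HoxA, with 11 genes, had 10 or 11 in each group, and the gene missing from both WT groups was Hoxa13. HoxB, with 10 genes, had 9 in 3 groups and 7 in Keap1 null allografts, where Hoxb8 and Hoxb13 were missing. HoxC, with 6 genes, had all 6 in both WT groups and 4 in both Keap1 null groups, where Hoxc12 and Hoxc13 were missing. Hoxb1 and Hoxd1 reached that level on none of the 8 arrays.

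**Figure D1:**
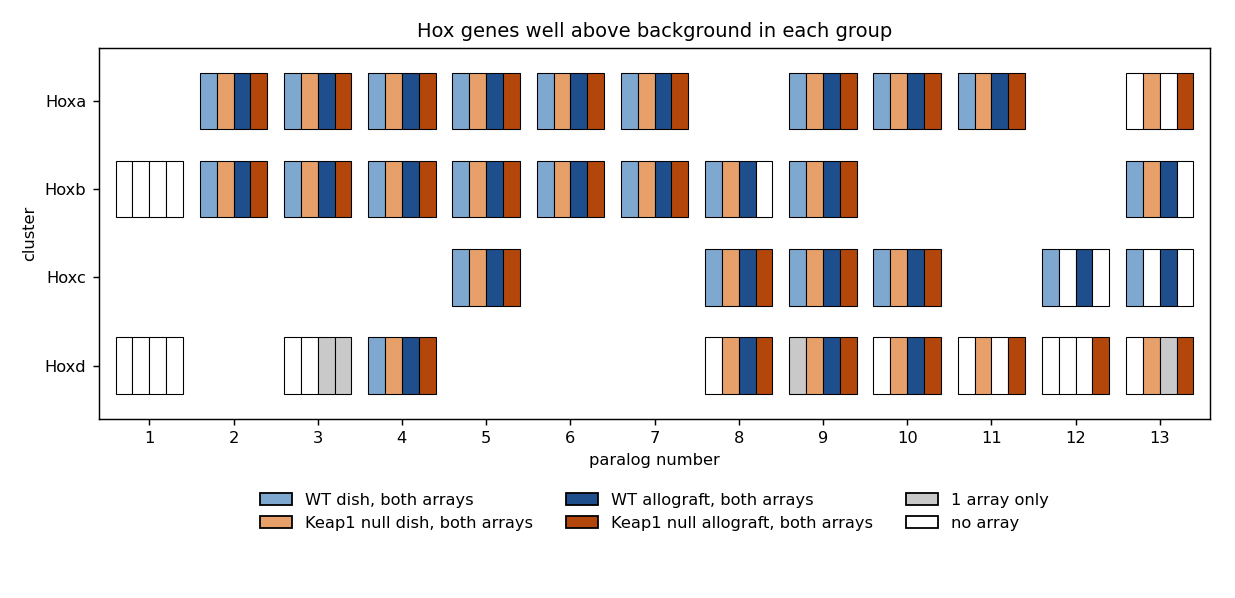
Hox genes by cluster (rows) and paralog number (columns), with 1 bar for each of the 4 groups: a coloured bar is a gene well above background on both arrays, grey on 1 array, white on none, and no bars means no gene, no matched probe or a gene not shown. The HoxD row fills from 1 gene in WT dishes to 7 in Keap1 null allografts, and Hoxc12 and Hoxc13 are coloured in the WT groups only.

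The first comparison asked how the lines differ in the dish. The HoxD cluster was far brighter in Keap1 null cells: Hoxd8, Hoxd9, Hoxd10, Hoxd11 and Hoxd13 were at least 10.1-fold higher. This bound holds for the main background treatment. With normexp background correction log2 differences were smaller: 1.70 for Hoxd8, 1.93 for Hoxd9, 2.40 for Hoxd10, 2.02 for Hoxd11 and 5.16 for Hoxd13. Each kept its call. The 5′ HoxA genes were higher too, by 6.00-fold for Hoxa11 and 5.79-fold for Hoxa10. Hoxc12 was at least 2.66-fold lower. Of the 33 tested genes, 15 were higher and 8 lower, or 23 called, where 21.1% of all targets were called (11.4% higher and 9.78% lower). The median Hox difference was 0.43 on the log2 scale and that of all targets -0.05.

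Hoxd13, the 5′-most HoxD gene, which patterns digits and the genital tubercle, showed the largest difference. It read -8.72 and -7.61 in WT dishes and 0.59 and 0.86 in Keap1 null dishes, a fitted difference of 8.89 (SE 0.84, limma adjusted p = 0.00125). The WT arrays were not well above background, so by this probe the difference is a bound of at least 162-fold. The second Hoxd13 probe gave a smaller log2 difference of 6.18, and normexp background correction gave 5.16. Hoxd11, which shapes the forearm with Hoxa11, read -8.72 and -9.11 in WT dishes against -3.33 and -3.21 (difference 5.65, SE 0.18, adjusted p = 3.29e-05, at least 10.1-fold). Hoxd10, a gene of lumbar motor neurons and hindlimb, read -7.51 and -6.54 against -2.07 and -2.19 (4.90, SE 0.35, adjusted p = 0.000425, at least 20.4-fold). None of these probes was well above background in a WT dish, while each was on both Keap1 null dish arrays. By the looser flag Hoxd10 was positive on both WT dish arrays, Hoxd13 on array 2 and Hoxd11 on neither.

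Hoxd9, which lies beside Hoxd10, read -8.30 and -8.83 in WT dishes and -3.31 and -2.97 in Keap1 null dishes (5.43, SE 0.25, adjusted p = 9.43e-05, at least 11.1-fold). A dimmer second Hoxd9 probe read -7.96 and -6.57 against -3.54 and -3.39 and was well above background on WT dish array 2, so the bound holds for the brighter probe. Hoxd8, a trunk-level gene, read -8.20 and -8.56 against -3.34 and -3.17 (5.13, SE 0.14, adjusted p = 2.27e-05, at least 10.3-fold). Hoxd4, an anterior gene of the neck region, did not share this: it read -5.58 and -5.80 in WT dishes and -5.13 and -5.64 in Keap1 null dishes, and its arrays overlapped (adjusted p = 0.496). Hoxd12 was not well above background in either dish group, though all 4 dish arrays passed the looser flag.

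In HoxA the direction changed along the cluster. Hoxa2, which patterns the hindbrain and the second branchial arch, was 2.45-fold lower in Keap1 null dishes (-1.29 on the log2 scale, SE 0.14, adjusted p = 0.00192). Hoxa4, Hoxa5, Hoxa7, Hoxa9, Hoxa10, Hoxa11 and Hoxa13 were higher. Hoxa3 and Hoxa6 were not called. Hoxa11, a forearm and uterus gene, read -0.65 and -0.49 in WT dishes against 1.97 and 2.06 in Keap1 null dishes (2.58, SE 0.11, adjusted p = 8.49e-05). Hoxa13, the partner of Hoxd13 in the hand plate, read -8.68 and -8.19 against -5.44 and -5.47 (2.98, SE 0.40, adjusted p = 0.00462, at least 2.22-fold). With normexp background correction this difference was 0.63. A second Hoxa13 probe read -8.33 and -7.00 against -6.10 and -6.12 and was not called (1.55, limma adjusted p = 0.0667 with every probe fitted). Hoxa10 read -2.89 and -2.80 against -0.33 and -0.29, with no overlap (2.53, SE 0.12, adjusted p = 1e-04). The other called HoxA genes differed by less on the log2 scale, among them Hoxa7 (4.70-fold), Hoxa5 (3.1-fold) and Hoxa9 (2.19-fold).

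HoxB and HoxC moved less in the dish. In HoxB, Hoxb2, Hoxb6, Hoxb7 and Hoxb8 were lower, by 1.75-fold to 3.04-fold, Hoxb5 was 1.63-fold higher, and Hoxb3, Hoxb4, Hoxb9 and Hoxb13 were not called. In HoxC, Hoxc5 and Hoxc10 were not called. Hoxb7, a trunk gene, read 2.94 and 2.98 in WT dishes and 1.30 and 1.41 in Keap1 null dishes (-1.60, SE 0.09, adjusted p = 0.000183). The thoracic gene Hoxc8 was 5.14-fold higher and Hoxc9 1.28-fold (adjusted p = 0.0342), while Hoxc12 and Hoxc13 were lower. Hoxc12 read -5.01 and -5.59 in WT dishes and -8.76 and -8.57 in Keap1 null dishes, where it was not well above background (-3.37, SE 0.26, adjusted p = 0.000564). Hoxc13, a regulator of hair and nail keratins, was at least 2.68-fold lower (-1.42, adjusted p = 0.00179).

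Read over the 4 clusters together, paralogs 9 to 13 held 9 higher and 2 lower genes of 15 in Keap1 null dishes. Paralogs 5 to 8 held 5 higher and 3 lower of 10, and paralogs 1 to 4 held 1 higher and 3 lower of 8. Among paralogs 9 to 13 the higher genes were 4 of 4 in HoxA, 4 of 5 in HoxD, 1 of 4 in HoxC and 0 of 2 in HoxB. Of these paralogs, Hoxa13, Hoxd11 and Hoxd13 entered the test only through Keap1 null groups. Hoxc12 and Hoxc13, the lower genes, entered only through WT groups. The directions of these genes were thus partly set by the filter. By cluster the median difference was 5.13 in HoxD, 1.13 in HoxA, -0.29 in HoxC and -0.81 in HoxB. The direction of all 23 called genes was kept under each of 4 other scalings of the arrays. Of the called genes 17 passed under every alternative, in which a gene was read by its brightest probe or the mean of its probes. The second Hoxa13 probe, which was not called, was not counted in these alternatives. Hoxa4 lost its call in 12 of 17, Hoxc9 in 11 and Hoxb8 in 7 of 16. Hoxb5 lost it without Keap1 null dish array 1, and Hoxb6 without array 2. Without Keap1 null dish array 2, 5 genes were called lower in place of 8.

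The second comparison set the lines against each other as allografts. HoxD and 5′ HoxA were again higher in the Keap1 null line, and HoxB was now lower throughout: 9 of 9 tested HoxB genes fell below the WT level, and 5 of 6 HoxC genes did. Hoxb9 was 22.7-fold lower, Hoxb6 14.6-fold, Hoxb7 14.4-fold and Hoxa2 11.5-fold. Hoxa11 was 16.4-fold higher. Of 33 genes 11 were higher and 17 lower, where 41.8% of all targets were called (20.5% higher and 21.3% lower). The Hox median was -0.62 and that of all targets 0.00.

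**Figure D2:**
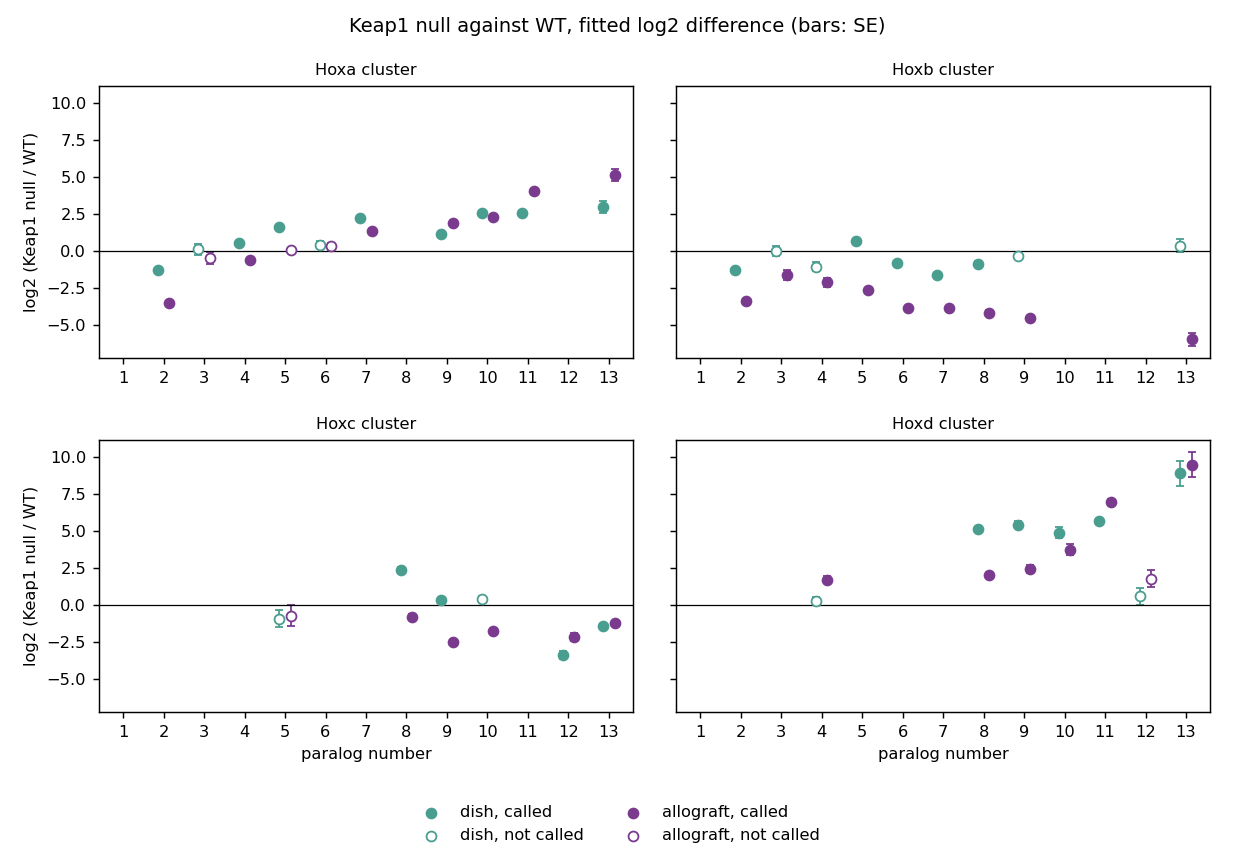
Fitted log2 difference of Keap1 null over WT by paralog number, 1 panel for each cluster, in dishes (green) and allografts (purple). Filled points passed the limma threshold, bars are SE, and where 1 group was not well above background the point is a fitted value and not a bound. HoxD and 5′ HoxA points lie above 0 in both settings, and every HoxB allograft point lies below 0.

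Hoxd13 read -9.27 and -6.64 in WT allografts against 1.52 and 1.52 in Keap1 null allografts (9.48, SE 0.84, adjusted p = 0.000406). Only WT allograft array 2 was well above background, so no fold is given. Without WT allograft array 1 the difference was 8.16, with normexp background correction 6.06, and with the second Hoxd13 probe 4.65. Hoxd11 read -9.27 and -8.89 against -2.08 and -2.11 (6.99, SE 0.18, adjusted p = 9.38e-06, at least 32.3-fold). Hoxa13 read -7.99 and -9.24 against -3.50 and -3.44 (5.14, SE 0.40, adjusted p = 0.000246, at least 12.5-fold). Hoxd11 and Hoxa13 did not reach that flag in either WT group.

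Hoxa11 read -1.04 and -0.95 in WT allografts against 3.13 and 2.95 in Keap1 null allografts, well apart (4.03, SE 0.11, adjusted p = 1.11e-05). Hoxd10 (13.4-fold), Hoxd9 (5.42-fold), Hoxa10 (5.01-fold), Hoxd8 (4.07-fold), Hoxa9 (3.65-fold), Hoxd4 (3.30-fold) and Hoxa7 (2.58-fold) were also higher. Hoxd12 reached -6.27 and -6.26 in Keap1 null allografts, the only group where it was well above background, but was not called (1.79, adjusted p = 0.0517). Hoxa3, Hoxa5, Hoxa6 and Hoxc5 were not called either, and Hoxc5 rests on 1 Keap1 null allograft array because its spot on the other was an outlier and was left out. A dimmer second Hoxa3 probe was called lower (-1.92, limma adjusted p = 0.0192) and was not well above background in Keap1 null allografts.

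On the low side stood Hoxb13, a tail-end and prostate gene, at -2.17 and -2.16 in WT allografts against -8.86 and -7.39 in Keap1 null allografts, where it was not well above background (-5.95, SE 0.44, adjusted p = 0.000208, at least 23.1-fold). Hoxb9, a gene of rib identity, read 1.43 and 1.56 against -2.84 and -3.17 (-4.50, SE 0.13, adjusted p = 1.16e-05). Hoxb8, known for its part in the spinal cord and in myeloid progenitors, read -3.55 and -3.16 against -7.50 and -7.52 (-4.15, SE 0.20, adjusted p = 4.55e-05, at least 10.1-fold). Every WT allograft array of these HoxB genes lay above both Keap1 null arrays.

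Hoxb6, a trunk gene, read 2.12 and 1.95 in WT allografts against -1.80 and -1.86 in Keap1 null allografts (-3.86, SE 0.12, adjusted p = 1.37e-05). Hoxb7 read 2.42 and 2.46 against -1.35 and -1.47 (-3.85, adjusted p = 8.36e-06). Hoxa2 read -2.06 and -1.95 against -5.69 and -5.36 (-3.52, adjusted p = 2.59e-05). In these genes too the groups did not overlap. The others were lower by 10.2-fold (Hoxb2), 6.10-fold (Hoxb5), 5.64-fold (Hoxc9), 4.35-fold (Hoxb4), 3.44-fold (Hoxc10) and 3.09-fold (Hoxb3). Hoxc13 and Hoxc12 were lower by at least 2.10-fold and at least 1.20-fold, and Hoxc8 (1.74-fold) and Hoxa4 (1.54-fold) by less.

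**Figure D3:**
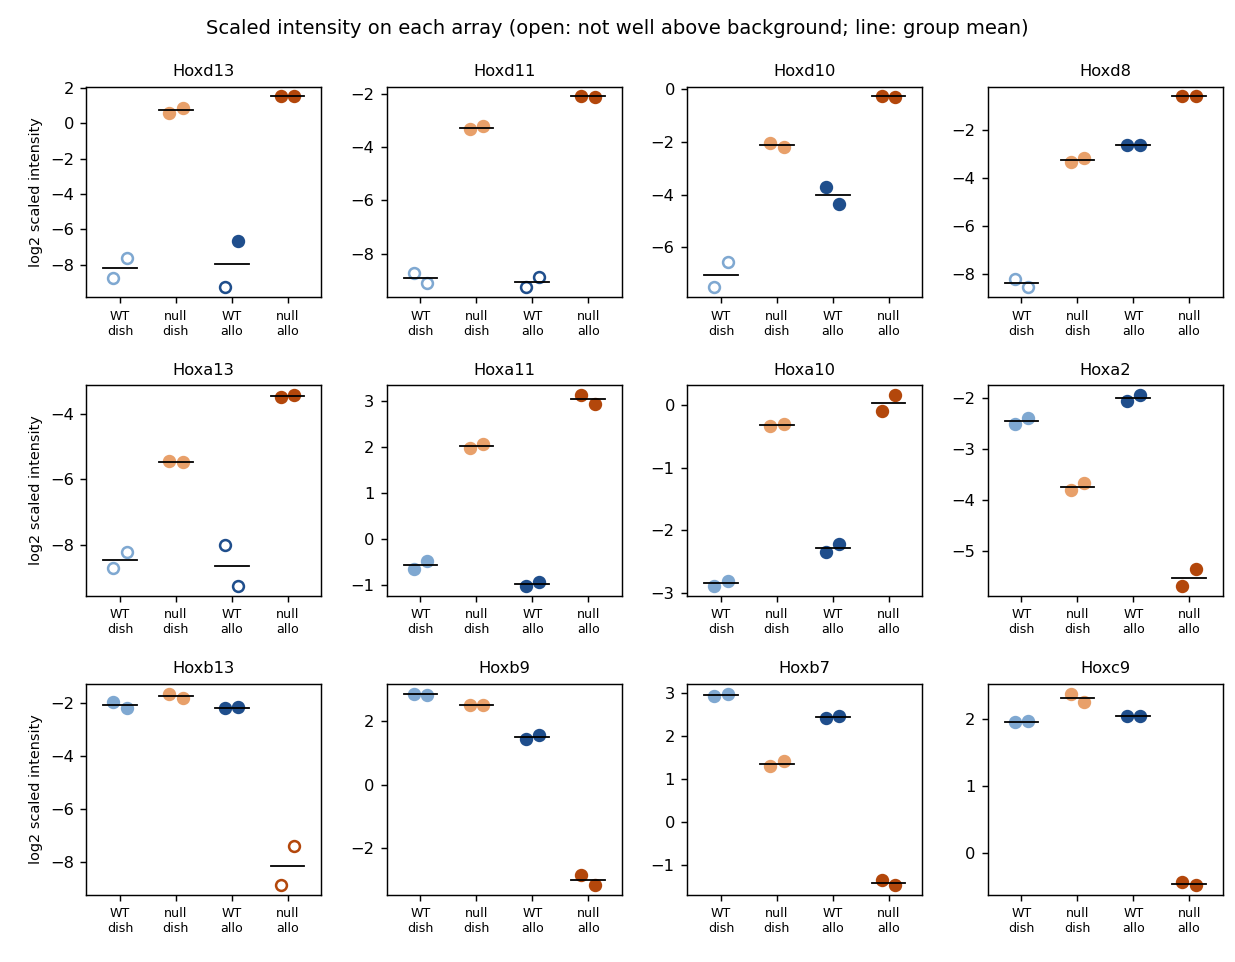
Scaled log2 intensity of 12 Hox genes on each array, by group (allo, allograft), with open points where the probe was not well above background and a line at the mean of the 2 arrays. Hoxd13, Hoxd11 and Hoxa13 are near the floor in both WT groups, apart from Hoxd13 on WT allograft array 2, which was well above background. Hoxb13, Hoxb9, Hoxb7 and Hoxc9 are lowest in Keap1 null allografts. Each panel has its own vertical range.

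All 28 called genes kept their direction under the 4 other scalings. Hoxa4 was not called without WT allograft array 2 or without Keap1 null allograft array 2. Hoxc8 lost its call in 9 of 17 alternatives and Hoxc12 with normexp background correction, while 24 of the 28 lost it in no alternative. An allograft holds host cells as well as the injected line, and in bulk RNA fewer cells of a type and less RNA per cell cannot be told apart. Macrophage markers were higher in WT allografts: their summed level, in multiples of the 75th percentile, was 78.0 to 87.9 there and 21.1 to 21.3 in Keap1 null allografts, and 9 of 10 were called lower in the latter. In the dishes that sum was at most 2.69, and Adgre1, Ptprc, Itgam, Fcgr1 and C1qc were not well above background on any of the 4 dish arrays. The corresponding sums in WT and Keap1 null allografts, over tested markers, were 19.3 to 20.9 and 16.3 to 17.5 for 10 endothelial markers (4 lower). They were 859 to 887 and 945 to 1015 for 12 fibroblast markers (3 higher and 5 lower), whose median log2 difference was -0.47, against the direction of the sums. For the 9 tested of 10 skeletal muscle markers they were 0.95 to 4.09 and 2.92 to 12.3. They were 0.79 and 0.22 to 2.90 for the 6 tested of 8 keratinocyte markers. For the 6 tested of 7 adipocyte markers they were 5.59 to 12.9 and 12.1 to 14.2. Y-linked Ddx3y, Eif2s3y and Uty were not well above background in any dish. The sum of the 3 tested of 4 Y-linked genes was 1.03 to 1.30 in WT allografts and 0.53 to 0.58 in Keap1 null allografts. Their part in the allograft Hox levels was not tested.

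The line differences in dish and in allograft come from different arrays and can be set side by side, though they share the fit's estimate of spread. Of 33 genes 25 had the same sign in both. 10 were called higher in both (Hoxa7, Hoxa9, Hoxa10, Hoxa11, Hoxa13, Hoxd8, Hoxd9, Hoxd10, Hoxd11 and Hoxd13) and 8 lower in both (among them Hoxa2, Hoxb2, Hoxb6, Hoxb7, Hoxb8, Hoxc12 and Hoxc13). In the dish Hoxa13 was called by its brighter probe only. Hoxa4, Hoxb5, Hoxc8 and Hoxc9 were called in opposite directions, higher in the dish and lower in the allograft. Across the 33 genes, which are not independent replicates, Pearson's r was 0.83 and Spearman's rho 0.79. The same sign was seen in 7 of 7 HoxD genes, 9 of 11 HoxA genes, 6 of 9 HoxB genes and 3 of 6 HoxC genes. Hoxa13, Hoxd11, Hoxd12 and Hoxd13 entered the test only through Keap1 null groups, and Hoxc12 and Hoxc13 only through WT groups. Their shared signs, and their part in r, were thus partly set by the filter. Such sign counts were not made over all targets.

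**Figure D4:**
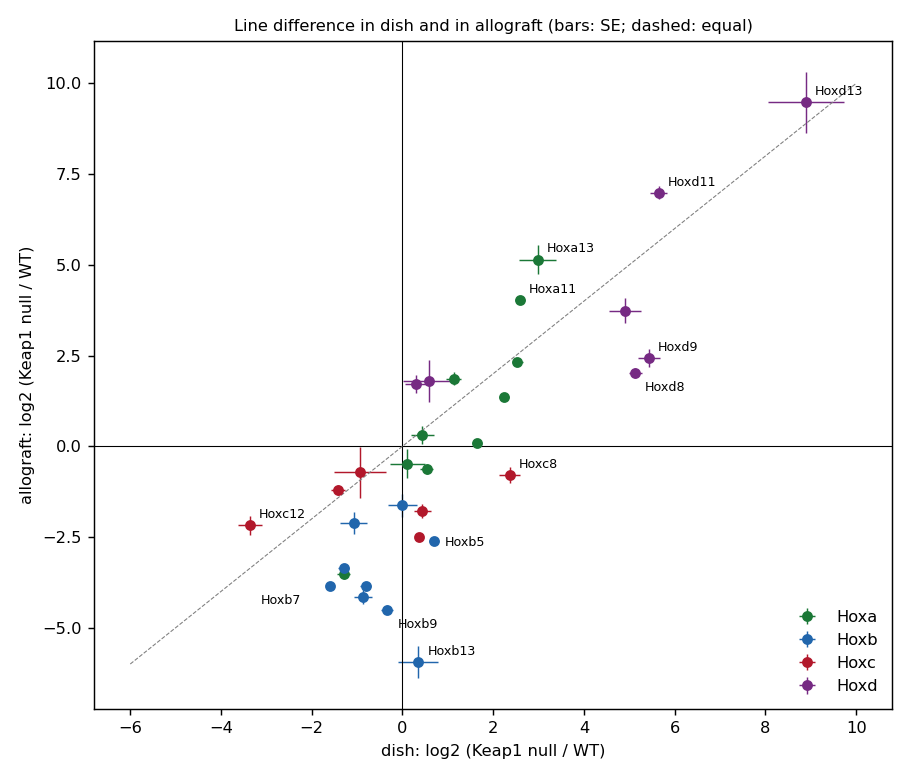
Log2 difference of Keap1 null over WT in dishes (horizontal) and in allografts (vertical), 1 point for each Hox gene shown, coloured by cluster, with SE bars and a dashed line of equal values. HoxD and posterior HoxA genes lie in the upper right, while all HoxB points lie below 0 on the vertical axis, down to Hoxb13 at 0.35 in the dish and -5.95 in the allograft.

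Paralogs, which share a homeodomain type, often differed in direction between clusters. Of 12 paralog groups with at least 2 tested genes, 6 held genes called in both directions in allografts (4, 7, 8, 9, 10 and 13), 2 held genes called in 1 direction (2 and 11), and 4 had at most 1 called gene. In dishes 3 groups held both directions (7, 8 and 13), 5 held 1 direction (2, 5, 9, 10 and 11) and 4 had at most 1 called gene. In group 2 the allograft difference was -3.52 for Hoxa2 and -3.35 for Hoxb2, and in group 11 it was 4.03 for Hoxa11 and 6.99 for Hoxd11. In paralog group 13 the allograft difference was 9.48 for Hoxd13 and 5.14 for Hoxa13 but -5.95 for Hoxb13 and -1.20 for Hoxc13. In group 9 it was 2.44 for Hoxd9 and 1.87 for Hoxa9 but -4.50 for Hoxb9 and -2.49 for Hoxc9. In group 8 Hoxd8 was higher (2.02) and Hoxb8 and Hoxc8 lower (-4.15 and -0.80). In group 4 Hoxd4 was higher (1.72) and Hoxa4 and Hoxb4 lower (-0.62 and -2.12). All of these passed the limma threshold in allografts. The cluster medians in allografts were 2.44 in HoxD, 0.32 in HoxA, -1.49 in HoxC and -3.85 in HoxB. Paralogs 9 to 13 of the 4 clusters together held 8 higher and 6 lower genes of 15 in Keap1 null allografts. Here too the directions of Hoxa13, Hoxd11, Hoxd13, Hoxc12 and Hoxc13 were partly set by the filter.

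The third comparison was growth as an allograft against the dish in the WT line. The HoxD genes Hoxd4, Hoxd8, Hoxd9 and Hoxd10 rose, and the genes of the other clusters differed by 1.42 or less on the log2 scale. Of the 33 Hox genes 11 were higher and 9 lower, where 68.1% of all targets were called (35.9% higher and 32.2% lower), so 20 of 33 called is no larger a share than among all genes. The Hox median was 0.03 and that of all targets -0.02. Counts in this comparison turned on the scaling, with 4 higher and 25 lower on array medians, 7 and 15 with quantile normalization, 12 and 2 unscaled, and 7 and 14 with normexp background correction. The first of these moved the median of all targets to -1.04 in the WT line and to -0.84 in the Keap1 null line, and no scaling moved it to 0.36 in the WT line.

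Hoxd8 showed the largest rise, from -8.20 and -8.56 in WT dishes to -2.64 and -2.61 in WT allografts (5.76, SE 0.14, adjusted p = 1.98e-06, at least 15.8-fold). Hoxd9 went from -8.30 and -8.83 to -3.66 and -3.89 (4.78, SE 0.25, adjusted p = 2.23e-05, at least 7.12-fold). Hoxd10 went from -7.51 and -6.54 to -3.71 and -4.35 (3.00, SE 0.35, adjusted p = 0.000561, at least 5.47-fold). The dish levels of these probes were not well above background, and the allograft levels were on both arrays. Hoxd4 was measured on every array and went from -5.58 and -5.80 to -2.89 and -3.47 (2.51, SE 0.26, adjusted p = 0.000314, 5.70-fold). Hoxd11 and Hoxd12, by contrast, were not well above background in either WT group. Hoxd13 was not called by its brighter probe (0.21, limma adjusted p = 0.838 with every probe fitted). Its second probe was called higher (2.26, adjusted p = 0.0102), from -8.42 and -8.75 to -7.21 and -5.45. Of the WT arrays, both Hoxd13 probes were well above background only on allograft array 2.

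Among the other WT changes, Hoxc8 (2.64-fold), Hoxb5 (2.02-fold) and Hoxa5 (1.86-fold) were higher and Hoxb9 (2.54-fold), Hoxc12 (2.19-fold) and Hoxb2 (1.70-fold) lower, of which Hoxa5 and Hoxb5 changed sign with array-median scaling. Hoxc8 lost its call with array-median scaling, quantile normalization and normexp, under which it was 0.08 on the log2 scale (adjusted p = 0.492). Hoxa5 lost its call under the same 3 settings, Hoxb5 on array medians and Hoxb2 without scaling. Hoxa2, Hoxa4, Hoxa10 and Hoxb6 also changed sign under at least 1 other scaling. Relative to the median of all targets under each scaling, 18 of the 20 called genes kept their direction, and Hoxa4 and Hoxb7 did not. Called under every alternative that was run were 6 of the 20. Leaving out WT dish array 2 ended the call of Hoxa2, Hoxa4, Hoxa11, Hoxb6, Hoxb8 and Hoxc13, and leaving out WT allograft array 1 that of Hoxa2, Hoxa7, Hoxa11, Hoxb6 and Hoxb8. Hoxa2, Hoxa4 and Hoxc13 also lost it without WT dish array 1 or WT allograft array 2.

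The fourth comparison was the same in the Keap1 null line. Here HoxB fell as a whole, with 9 of 9 genes lower, and 5 of 7 HoxD genes rose. Hoxb9 fell 45.2-fold, Hoxb13 at least 31.3-fold and Hoxb8 at least 8.82-fold, while Hoxd4 rose 15.2-fold. In all 9 Hox genes were higher and 17 lower, where 64.9% of all targets were called (35.8% higher and 29.1% lower), and with array-median scaling the counts were 5 and 23. The Hox median was -0.72 and that of all targets 0.03.

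Hoxb13 went from -1.65 and -1.80 in Keap1 null dishes to -8.86 and -7.39 in allografts (-6.40, SE 0.44, adjusted p = 7.44e-05). Hoxb9 went from 2.50 and 2.49 to -2.84 and -3.17 (-5.50, SE 0.13, adjusted p = 3e-06). Hoxb8 went from -3.67 and -3.43 to -7.50 and -7.52 (-3.96, SE 0.20, adjusted p = 2.45e-05). All 3 were well above background in the dish, and Hoxb13 and Hoxb8 were not in the allograft. The rest of HoxB was lower by 2.54-fold to 7.05-fold.

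Hoxd4 went from -5.13 and -5.64 in Keap1 null dishes to -1.57 and -1.35 in allografts (3.93, SE 0.26, adjusted p = 5.92e-05). Hoxd8 (6.27-fold), Hoxd10 (3.58-fold), Hoxd9 (3.48-fold) and Hoxd11 (2.26-fold) were higher too. In HoxA the posterior genes Hoxa9, Hoxa10, Hoxa11 and Hoxa13 rose by 1.28-fold to 3.97-fold, and Hoxa2, Hoxa4, Hoxa5 and Hoxa7 fell by 1.56-fold to 3.44-fold, with Hoxa9 and Hoxa10 changing sign on array medians. In HoxC, Hoxc9 fell 6.8-fold, Hoxc10 3.48-fold and Hoxc8 3.39-fold, and Hoxc12 and Hoxc13 were not well above background in either group. All 26 called genes kept their direction relative to the median of all targets under every scaling, and 18 kept their call under every alternative. Hoxb3 lost it without Keap1 null dish array 2 and Hoxa10 in 9 of 17 alternatives. Hoxa9, Hoxa11 and Hoxd11 lost it on array medians, Hoxa13 and Hoxd9 with quantile normalization, and Hoxa4 with the mean of its probes.

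**Figure D5:**
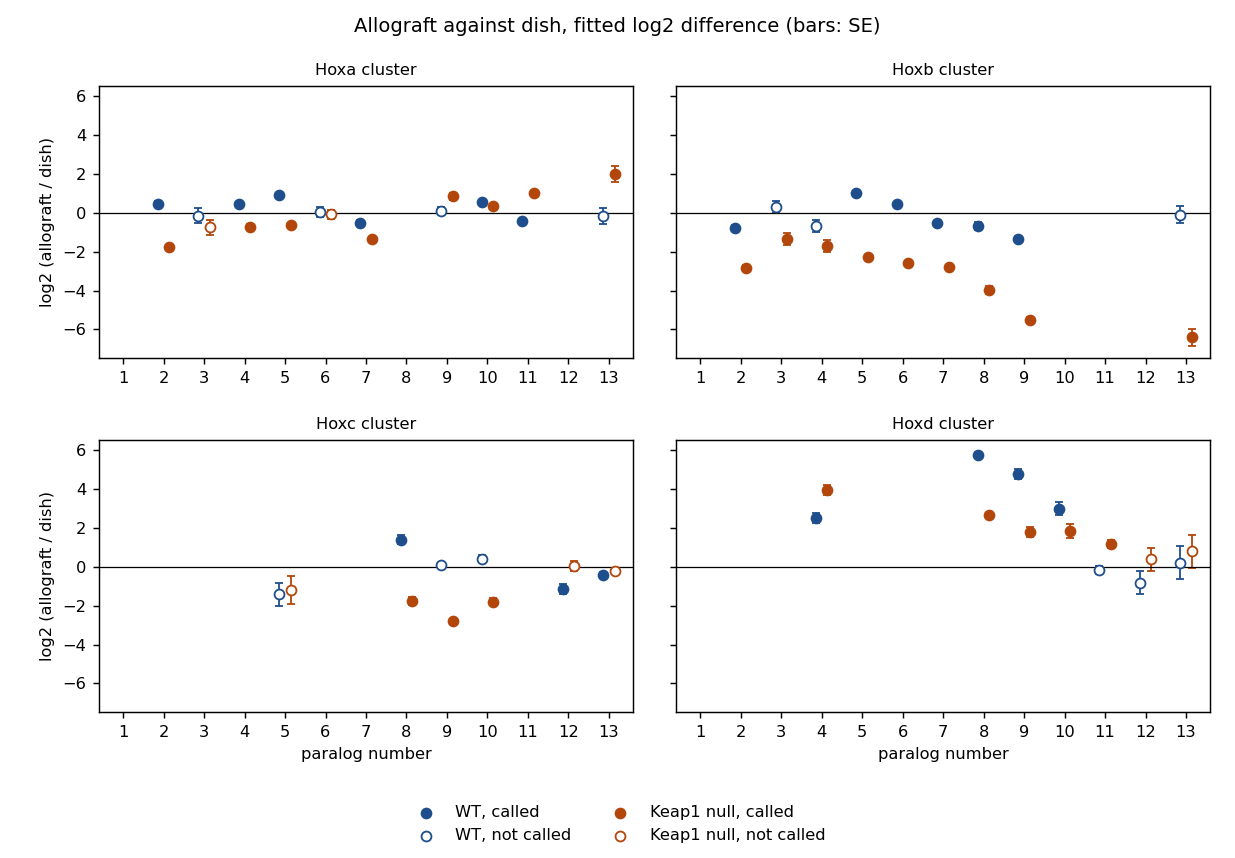
Fitted log2 difference of allograft over dish by paralog number, 1 panel for each cluster, in the WT (blue) and Keap1 null (orange) lines, filled where the limma threshold was passed and with SE bars. Keap1 null HoxB points run from -1.34 at Hoxb3 to -6.40 at Hoxb13, and the HoxD points of both lines are highest at Hoxd4 to Hoxd10. With other scalings, Hoxa2, Hoxa4, Hoxa5, Hoxa10, Hoxb5 and Hoxb6 change sign in WT and Hoxa9 and Hoxa10 in Keap1 null.

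Both growth comparisons again rest on different arrays. 5 genes were higher in both (Hoxa10, Hoxd4, Hoxd8, Hoxd9 and Hoxd10), 6 were lower in both (among them Hoxa7, Hoxb2, Hoxb7, Hoxb8 and Hoxb9), and 7 were called in opposite directions (Hoxa2, Hoxa4, Hoxa5, Hoxa11, Hoxb5, Hoxb6 and Hoxc8). The same sign was seen in 18 of 33 genes, with r = 0.51 and rho = 0.31 across genes. Of these, Hoxa2, Hoxa4, Hoxa5, Hoxa10, Hoxb5 and Hoxb6 are among the genes whose WT sign turned with the scaling. Host markers rose with growth in both lines, with 10 of 10 macrophage and 10 of 10 endothelial markers higher in each. Of 12 fibroblast markers, which host and injected cells could both express, 10 were higher and 1 lower in each line, with medians of 5.26 in WT and 2.91 in Keap1 null. The part of these markers' cells in the Hox changes was not tested.

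The interaction tested whether the line difference itself differed between allograft and dish. It was called for 21 of 33 Hox genes, 17 of them lower in the sense that the Keap1 null level fell further below WT, or rose less above it, in the allograft. Of all targets 32.9% were called (15.8% higher and 17% lower). Of 9 HoxB genes 8 were lower, with Hoxb4 not called, and the Hox median was -1.16 against 0.04 for all targets. Higher were Hoxa11, Hoxa13, Hoxd4 and Hoxd11, and the counts with normexp background correction were 7 higher and 15 lower.

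Hoxb13 gave the largest interaction (-6.30, SE 0.63, limma adjusted p = 0.000993). Its line difference was 0.35 and not called in the dish (adjusted p = 0.678) and -5.95 in the allograft. The dish arrays did not overlap, with 0.32 and 0.37 on the 2 slides. The spread in that p is shared over the groups, among them the Keap1 null allograft arrays at -8.86 and -7.39. Hoxb9 gave -4.15 (SE 0.18, adjusted p = 9.84e-05), with -0.35 in the dish and -4.50 in the allograft. Hoxb8 gave -3.29 (SE 0.28, adjusted p = 0.000613). Since Hoxb13 and Hoxb8 were not well above background in Keap1 null allografts, the sizes of their interactions are not resolved.

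Hoxb5 read -2.73 and -2.81 for WT against -2.0 and -2.15 for Keap1 null in the dish. In the allograft it read -1.80 and -1.72 for WT against -4.45 and -4.28. Its Keap1 null level was thus above WT in the dish and below it in the allograft (interaction -3.31, SE 0.15, adjusted p = 0.000108). Hoxc8 showed the same crossing, at -5.85 and -5.91, -3.59 and -3.45, -4.34 and -4.63, and -5.60 and -4.96 in the same order (-3.16, SE 0.32, adjusted p = 0.00104). Hoxc9 read 1.95 and 1.96, 2.37 and 2.26, 2.05 and 2.04, and -0.43 and -0.47 (-2.85, adjusted p = 9.37e-05), so that 6 arrays lay near 2 and both Keap1 null allograft arrays below 0.

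Hoxd8 was higher in the Keap1 null line in both settings but by less in the allograft, 5.13 against 2.02 (interaction -3.11, SE 0.20, adjusted p = 0.000249). Its WT dish level was not well above background, and with normexp background correction the interaction was 0.21 (adjusted p = 0.466), so its direction depended on how low intensities were treated. The Hoxd9 interaction of -2.99 fell to -0.09 with normexp (adjusted p = 0.809) and -0.97 with quantile normalization (adjusted p = 0.261), and its second probe gave -1.42 (adjusted p = 0.123). Without WT dish array 1, Keap1 null dish array 2 or either Keap1 null allograft array, 2 genes were called higher in place of 4. Hoxb3 and Hoxa13 lost their interaction call in 8 alternatives and Hoxd4 in 7, in each case most often when 1 array was left out, and Hoxd11 lost it with quantile normalization and without scaling. Hoxa13 and Hoxd11, with the WT line not well above background in either setting, have interactions of unresolved size.

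The arrays were also read slide by slide. Each slide held 1 array of every group. Over the 33 tested genes, called or not, the groups' arrays did not overlap for 28 in the dish line comparison and 31 in the allograft line comparison. In WT growth this held for 25 and in Keap1 null growth for 30. The same count was not made over all targets. Such a separation of 2 arrays from 2 has an exact permutation p of 0.33. The Hox medians on slides 1 and 2 were 0.45 and 0.35 for the dish line difference, -0.66 and -0.50 for the allograft line difference, 0.10 and 0.01 for WT growth and -0.64 and -0.61 for Keap1 null growth. For 8 genes 2 probes were tested, and over the 5 comparisons their signs matched in 36 of 40 pairs, with 18 pairs called by both probes and no pair called in opposite directions. The signs differed for Hoxa3 in the dish line difference and in WT growth, for Hoxb3 in the dish line difference, and for Hoxd13 in the interaction. In Keap1 null growth the second Hoxa3 probe was called lower (-1.52, limma adjusted p = 0.0292) and the brighter one was not called. The second Hoxd13 probe read -8.42 and -8.75 for WT against -2.26 and -2.56 for Keap1 null in the dish, and -7.21 and -5.45 against -1.64 and -1.72 in the allograft, with the same order of lines.

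Genes that act with or upstream of the Hox clusters were read from the same fit. Of 9 cofactors of the PBX, MEIS and PKNOX families, 2 were higher and 2 lower in Keap1 null dishes (median 0.03) and 1 was higher and 5 lower in Keap1 null allografts (median -0.42). The called shares were 44.4% and 66.7%, where 21.1% and 41.8% of all targets were called. Pknox2 was at least 3.44-fold higher in the dish (adjusted p = 0.00165) and at least 2.73-fold lower in the allograft (adjusted p = 0.000261). Meis1 was 2.14-fold higher in the dish (adjusted p = 0.0162).

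Of 19 listed regulators of Hox transcription, largely of the retinoic acid pathway, 15 were tested, and 7 were higher and 1 lower in Keap1 null dishes, against 7 higher and 4 lower in allografts, called shares of 53.3% and 73.3%. Rarb, a retinoic acid receptor, was at least 1.48-fold higher in the dish (adjusted p = 0.000155). Aldh1a2, which makes retinoic acid, differed by 9.23-fold between the allografts, Keap1 null higher (adjusted p = 0.000225), and Cyp26b1, which degrades it, by 9.19-fold (adjusted p = 9.24e-05). Cyp26b1 read -2.67 and -2.87 in WT allografts against 0.70 and 0.16 in Keap1 null allografts, without overlap. Cdx1, Cdx2 and Cdx4 were not well above background on any of the 8 arrays.

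Of 27 Polycomb genes 1 was higher and 5 lower in Keap1 null dishes (median -0.10) and 6 were higher and 7 lower in allografts (median -0.01). These shares, 22.2% and 48.1%, are near the 21.1% and 41.8% of all targets. Scmh1 was 1.76-fold lower in the dish (adjusted p = 0.00363) and Phf19, a subunit that brings PRC2 to chromatin, 1.47-fold lower (adjusted p = 0.0496). In allografts Phf19 was 5.57-fold lower (adjusted p = 9.78e-05), and Jarid2, another PRC2 partner, 1.82-fold higher (adjusted p = 0.00155). Of 14 tested Trithorax and H3K27 demethylase genes, 0 were called by limma in either direction in the dish, where 4 had an unadjusted p below 0.05. In the allograft 2 were higher and 1 lower, a share of 21.4%, among them the demethylase Kdm6b (1.56-fold higher, adjusted p = 0.00655) and Wdr5 (1.39-fold lower, adjusted p = 0.00951). With growth, the cofactor, regulator, Polycomb and Trithorax lists held 1, 6, 4 and 4 higher and 3, 3, 15 and 8 lower genes in the WT line. In the Keap1 null line they held 1, 8, 3 and 5 higher and 5, 3, 14 and 6 lower. The called shares were 44.4%, 60.0%, 70.4% and 85.7% in the WT line and 66.7%, 73.3%, 63.0% and 78.6% in the Keap1 null line, where 68.1% and 64.9% of all targets were called.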

How the data were processed

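RNA of 4 groups was read on 8 arrays of 1 colour. The deposited scanner files hold spot intensity values written by Agilent Feature Extraction 10.7.3.1, with background and a spatial trend subtracted; per the file headers, arrays were not scaled to each other. A deposited value table repeats these intensities within 0.50%. Other upstream steps are not given in the sources used here. Here log2 intensity minus the 75th percentile of the array was used. Control and outlier spots were left out, and repeat spots averaged. A probe entered the test if some group had it well above background on both its arrays (30355 of 41174). Array accessions were named through RefSeq (GRCm38.p6), since the files hold no gene symbol column, and 26690 probes matched. The headers name build mm9.

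The brightest tested probe stood for a gene. A limma 3.58.1 fit (R 4.3.3) of 4 group means over all arrays gave 5 comparisons, with 4 residual and 1.83 prior degrees of freedom and Benjamini-Hochberg adjustment. It was tested on simulated data. With 2 arrays per group, an exact permutation test cannot go below p = 0.33. A fold is a ratio of geometric means. It is a bound, written at least N-fold, where no array of the dim group was well above background: the bright mean was divided by the dim group's floor, taken on each array as the larger of that probe's signal and the dimmest signal still well above background. A bound holds for the chosen probe and the main background treatment. With normexp background correction some differences were smaller than their bounds. Precision is limited by how few arrays there are.

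Members, lists and tests were chosen with earlier results of these data known. Genes given with every array value were the called Hox genes with the largest differences: up to 8 in each line comparison, 4 in each growth comparison and 6 in the interaction. Others are named where their cluster or paralogs are described. Of each list of related genes up to 2 called members per line comparison are named. Hoxa10, Hoxb7, Hoxa2 and Hoxc9 were given in full after their values were seen. A few items that the rules would name are counted in the totals but not reported by name, here or in the figures.

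Replicate numbers match the slides, per the file headers, and deviations of arrays with the same number correlated at 0.25 to 0.43 in every pair, so the number was also fitted as a block. The alternatives were the scaling, the background correction, the filter, the probe choice, the block and each array left out. For the probe choice, the mean of a gene's tested probes was used, and every tested probe was fitted. Of the latter fit only the brightest probe of a gene was counted, so a call missed by a second probe is not counted as lost. The normexp alternative used the median signal of the spot, since the files hold no mean signal.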

Additional observations from a re-analysis of the deposited data

Results flagged for a closer look

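The difference between the lines was itself different in allografts and dishes, by limma's interaction term, for 21 Hox genes, with adjusted p from 9.37e-05 for Hoxc9 to 0.037 for Hoxb3. In HoxB the interaction was -6.30 for Hoxb13, -4.15 for Hoxb9, -3.31 for Hoxb5, -3.29 for Hoxb8, -3.05 for Hoxb6, -2.25 for Hoxb7, -2.05 for Hoxb2 and -1.63 for Hoxb3, on the log2 scale. In HoxC it was -3.16 for Hoxc8, -2.85 for Hoxc9 and -2.21 for Hoxc10. In HoxA it was -2.23 for Hoxa2, -1.54 for Hoxa5, -1.16 for Hoxa4 and -0.87 for Hoxa7, but 1.45 for Hoxa11 and 2.17 for Hoxa13. In HoxD it was -3.11 for Hoxd8 and -2.99 for Hoxd9, but 1.42 for Hoxd4 and 1.34 for Hoxd11. At least 1 group of Hoxa13, Hoxb8, Hoxb13, Hoxd8, Hoxd9 and Hoxd11 was not well above background, so these sizes are fitted values and not resolved folds. With normexp background correction the Hoxd8 interaction was 0.21 and that of Hoxd9 -0.09 (adjusted p = 0.466 and 0.809).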

How the results depend on the processing

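With the block for the replicate number, which is the slide, the counts of higher and lower Hox genes were 15 and 9 for the line in dish, 12 and 18 for the line in allograft, 11 and 10 for growth in WT, 9 and 19 for growth in Keap1 null, and 5 and 17 for the interaction. None moved by over 1.5 times, and no gene given in full lost its call under the block. The following counts did move that far, and unless a construction is named the cause was not tested. Probes well above background on all 8 arrays left 22 genes, with 9 higher for the line in dish, 5 higher for the line in allograft and 4 higher for growth in Keap1 null. Without scaling, 5 were lower for the line in dish, 2 lower for growth in WT and 2 higher for the interaction. With the array median, growth in WT gave 4 higher and 25 lower and growth in Keap1 null 5 higher, as the median of all targets fell. Quantile normalization gave 7 higher and 15 lower for growth in WT. With normexp, growth in WT gave 7 higher and 14 lower, the interaction gave 7 higher, and the Hoxd8 interaction turned to 0.21. With each array left out in turn, higher and lower counts ranged over 12 to 14 and 5 to 9 for the line in dish, 11 to 12 and 14 to 17 for the line in allograft, 8 to 12 and 6 to 9 for growth in WT, 8 to 9 and 16 to 18 for growth in Keap1 null, and 2 to 5 and 16 to 17 for the interaction. The 30 results given for single genes by rule were picked as the largest called differences. Of their 490 alternative values 489 kept direction and call, which that choice favours. Over all called Hox genes the call was lost in some alternative for 6 of 23 for the line in dish and 4 of 28 for the line in allograft. It was lost for 14 of 20 for growth in WT, 8 of 26 for growth in Keap1 null and 7 of 21 for the interaction. The genes not well above background in 1 group are limited by signal over background.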

Other observations

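Genes beside the clusters were read as well, and 16 of 22 listed neighbours were tested. In Keap1 null dishes 1 was higher and 2 were lower, and in Keap1 null allografts 7 were lower and none was higher by limma, with list medians of -0.12 and -0.25. The called shares, 18.8% and 43.8%, are near the 21.1% and 41.8% of all targets. Skap1, an adaptor gene next to the 3′ end of HoxB, read -2.57 and -2.35 in WT allografts against -5.98 and -5.75 in Keap1 null allografts, where the 9 tested HoxB genes were lower too (-3.40, SE 0.13, limma adjusted p = 2.35e-05, 10.6-fold). In the dish it was 1.60-fold lower (adjusted p = 0.0166). Ttll6, on the other side of HoxB, was at least 1.57-fold lower in the allograft (adjusted p = 0.0363). Snx10, a neighbour of HoxA, was 1.64-fold higher in the dish (adjusted p = 0.00799).

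The neighbours of HoxD, chosen after their values were seen, gave another picture. Evx2, a homeobox gene next to Hoxd13, read -4.16 and -3.78 for WT against -3.33 and -3.24 for Keap1 null in the dish, and -1.55 and -0.33 against -1.42 and -0.92 in the allograft. It was well above background on all 8 arrays, including the WT dish arrays on which Hoxd13 was not. Its line difference was 0.68 in the dish and -0.23 in the allograft (limma adjusted p = 0.323 and 0.703), and it was higher in allografts of both lines by 3.03 and 2.12 (adjusted p = 0.000996 and 0.00485). Lnpk and Mtx2, which flank HoxD on its 2 sides, differed between the lines by -0.41 and -0.12 in the dish and 0.03 and 0.11 in the allograft, and none of these was called.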
